A study of Mus musculus with 3 samples.

Results

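Genes of the synaptic vesicle and of the machinery that releases its transmitter were followed in STHdh cells, a pair of immortalized striatal cell lines used to model Huntington's disease. They were 36 genes chosen by name and function, namely synapsins, vesicle membrane proteins, synaptotagmins, SNAREs and complexins, Rab3 and active zone proteins, endocytic proteins and vesicular transporters, and all 36 had a row of their own among the 22180 genes measured. The choice used no measured value but was made with earlier results of these arrays known. Both lines came from mice of the C57BL6/J label whose Htt gene carries a humanized exon 1, with 7 glutamine repeats in STHdhQ7/Q7 and 111 in STHdhQ111/Q111. Q7-Control and Q111-Control received a non-specific control morpholino. Q111-ASOs received a pair of morpholino antisense oligos (ASOs) at 3 μM each, which are directed at the splice sites around exon 3 of Rest. In all 3 groups the oligos were delivered with 6 μM Endo-Porter, the cells grew in medium with G418, and RNA was collected after 48 h. Total RNA of 1 culture per group was hybridized to 1 Affymetrix Mouse Gene array, which reads probes along the whole transcript.

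A nerve terminal fills vesicles with transmitter, tethers them, docks and primes them at the active zone, fuses them on calcium entry through SNARE proteins, and takes the membrane back by endocytosis. Several of these genes are known targets of REST, a repressor that binds the RE-1 element and keeps neuronal genes low in non-neuronal and progenitor cells. Mutant huntingtin is known for raising the nuclear level of REST, and the study asked whether ASOs that make Rest mRNA skip exon 3 relieve the repression.

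Each value below is a log2 signal, in which a difference of 1.0 is 2-fold, and 3 signals in a row are in the order Q7-Control, Q111-Control, Q111-ASOs. With 1 array per group no value has an error or a replicate check and no p-value was calculated. Q7 and Q111 are each a single cell line, so the repeat length and any other difference between the lines cannot be told apart. In RNA from a whole culture, fewer cells of a type and less RNA per cell also cannot be told apart. Array medians were between 5.97 and 6.03, and the median of the mean signal over all genes was 6.55. No detection value came with the signals. As a guide to their low end, 1105 olfactory receptor genes, which striatal cells are not known to use, had a 95th percentile of 5.82 in both control groups and 5.77 in Q111-ASOs, although single receptors reached 8.70. Over all genes the SD of the difference was 0.50 for Q7-Control minus Q111-Control and 0.13 for Q111-ASOs minus Q111-Control. Exactly the same value stood on all 3 arrays for 35.5% of all genes and for 8 of the 36 (22.2%), and why was not tested. Rest itself had signals of 9.16, 9.16 and 9.33 in Q7-Control, Q111-Control and Q111-ASOs, Htt had 9.85, 9.05 and 8.97, and Gapdh had 13.04 on each array. The Rest signal is 1 value for the whole transcript, so it measures neither the skipping of exon 3 nor the nuclear level of REST.

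The promoters of 3 genes are shown because these genes had the 3 highest Q7/Q111 folds among the 36. The sequences are the 250 bases before the RefSeq start site (GRCm38.p6), read in the direction of the gene. Syn1 lies at chrX:20920919-20921168, Unc13a at chr8:71671758-71672007 and Snap91 at chr9:86880709-86880958, all on the minus strand. Capitals mark matches to the RE-1 element with at most 1 mismatch, to either arm of that element, and to the cyclic AMP response element.
Syn1: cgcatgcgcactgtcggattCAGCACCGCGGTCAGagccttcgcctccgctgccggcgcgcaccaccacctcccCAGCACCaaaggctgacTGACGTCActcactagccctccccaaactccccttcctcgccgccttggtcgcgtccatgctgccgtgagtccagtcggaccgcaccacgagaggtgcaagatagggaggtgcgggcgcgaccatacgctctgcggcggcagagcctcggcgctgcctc
Unc13a: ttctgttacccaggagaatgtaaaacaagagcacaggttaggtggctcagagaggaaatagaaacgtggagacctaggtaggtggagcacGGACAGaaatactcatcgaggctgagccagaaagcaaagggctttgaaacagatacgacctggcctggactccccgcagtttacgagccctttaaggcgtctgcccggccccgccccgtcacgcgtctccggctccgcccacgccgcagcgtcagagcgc
Snap91: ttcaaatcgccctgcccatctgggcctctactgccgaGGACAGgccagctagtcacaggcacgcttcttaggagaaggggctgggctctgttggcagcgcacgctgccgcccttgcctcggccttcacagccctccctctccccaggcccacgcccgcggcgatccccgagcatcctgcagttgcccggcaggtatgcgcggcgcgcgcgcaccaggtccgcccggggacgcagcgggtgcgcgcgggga

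The RE-1 element was searched as CAGCACCNNGGACAG on both strands, from 250 bases before to 50 bases after the start, and 28 of the 36 genes had a promoter in the RefSeq table. Rims2, Snap25, Syn3, Syngr3, Syt4, Syt5, Syt7 and Vamp2 had no entry. Here and below, percentages are of single promoters. A gene of the 28 was counted if any promoter listed for it matched, so the units are unlike. With all 13 fixed letters matched, the element was found in 12 of 32851 promoters (0.0365%) and in 0 of the 28. With at most 1 mismatch it was found in 61 promoters (0.186%), among them those of Syn1 and Slc17a6, and with at most 2 in 632 (1.92%), which added Sypl2 and Syt2. The closest matches are shown with the matched fixed letters in capitals, since this is the element through which REST is known to bind. Syn1 carries it from -230 to -216 of its start (chrX:20921134-20921148), and Slc17a6 from 35 to 49 on the opposite strand (chr7:51621864-51621878).
Syn1: CAGCACCgcGGtCAG
Slc17a6: CAGgACCacGGACAG

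The left arm of the element, CAGCACC, was found in 7.14% of all promoters and in those of Sv2c, Syn1 and Unc13a. The right arm, GGACAG, was found in 22.2% of all promoters and in 11 of the 28, Unc13a and Snap91 included. An arm match can lie within a match of the whole element, as in Syn1 and Slc17a6, so these searches overlap. Unc13a and Snap91 had no whole element with at most 1 mismatch. In Unc13a the arms stand in order on the opposite strand with 8 letters between them, from 9 to 29 after the start (chr8:71671729-71671749). An exact pair with 0 to 10 letters between was found in 36 promoters (0.11%), and that spacing was chosen after the promoters were seen.
Unc13a: CAGCACCgggggcgcGGACAG

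The cyclic AMP response element TGACGTCA was found in 1.79% of all promoters and, of the 28, in Syn1 alone. A GC box, GGGCGG, was found in 35.7% of all promoters and in 23 of the 28, while TATAAA was found in 13.6% and, of the 28, in Sv2b alone. The upstream sequences are 68.0% G and C in Syn1, 58.0% in Unc13a and 71.2% in Snap91. A match of letters is a description, not a binding site, and nothing about REST follows from a window without one.

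**Figure D1:**
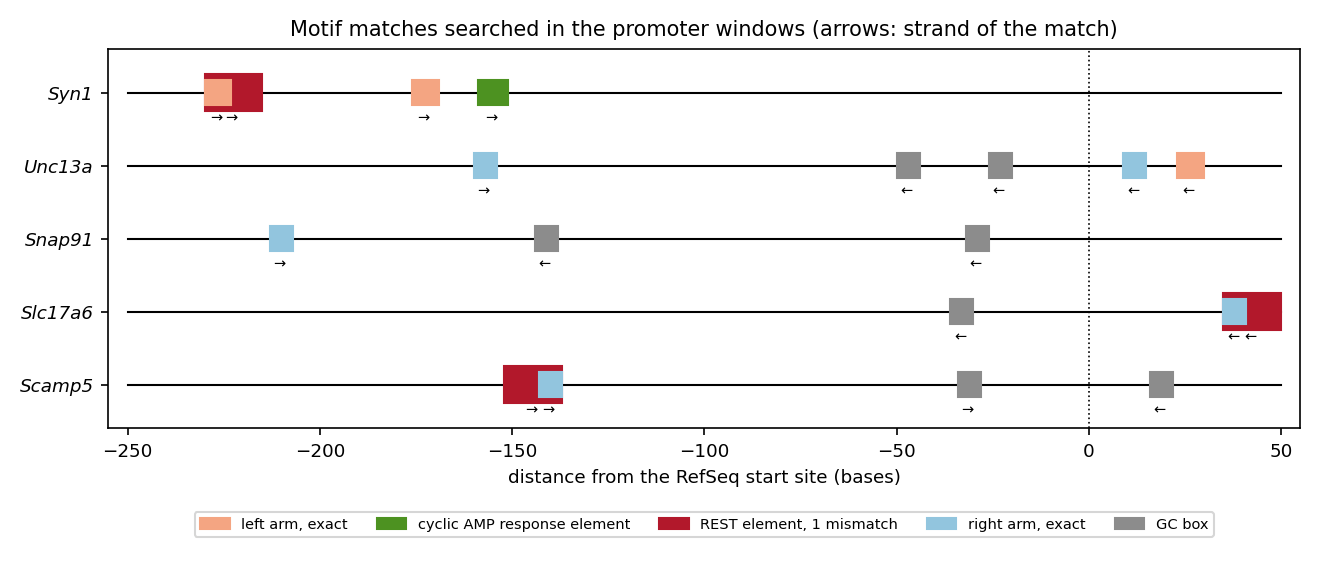
Motif matches in the promoter windows of 4 of the 36 genes and of Scamp5, against distance from the RefSeq start site in bases, with arrows for the strand of the match. Syn1 and Scamp5 carry the element with 1 mismatch upstream of the start and Slc17a6 carries it downstream, while Unc13a carries both arms apart.

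In the comparison of the cell lines, 4 of the 36 genes (11.1%) exceeded Q111-Control by over 2-fold in Q7-Control, as did 2.53% of all genes. They were the priming factor gene Unc13a (6.84-fold), the synapsin gene Syn1 (6.70-fold), the clathrin assembly gene Snap91 (3.77-fold) and the active zone gene Rims2 (2.89-fold). None was over 2-fold lower, where 2.03% of all genes were. At 1.5-fold, 7 were higher and 1 lower, with shares of 5.2% and 3.88% over all genes. By any amount 20 of the 36 were higher (29.7% of all genes were), 3 were lower and 13 were equal. Of all 22180 genes, 5965 were lower and 9630 were equal. The median difference was 0.07 and the mean 0.38, and the median over all genes was 0.00.

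The ASOs comparison asked which of these genes differed in Q111 cells given the ASOs against Rest exon 3. In Q111-ASOs 2 of the 36, Unc13a (3.58-fold) and Syn1 (3.01-fold), exceeded Q111-Control by over 2-fold, as did 0.104% of all genes. None was over 2-fold lower, where 0.0271% of all genes were. At 1.5-fold, Bsn and Rims2 joined them for a count of 4, against 0.455% of all genes, and 0 were lower, against 0.153%. By any amount 12 were higher (27.7% of all genes were), 9 were lower and 15 were equal. Of all 22180 genes, 5061 were lower and 10965 were equal. The median was 0.00 and the mean 0.11. Both comparisons subtract the same Q111-Control array and share its error. Syn1 and Unc13a were also listed by the study from these arrays for folds past 2 in both comparisons, so their direction here is not independent evidence. Apart from the arrays, the study reported qRT-PCR of Syn1. In it, Syn1 mRNA was lower in Q111 than in Q7 cells and was raised by the ASOs and by siRNAs against Rest.

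**Figure D2:**
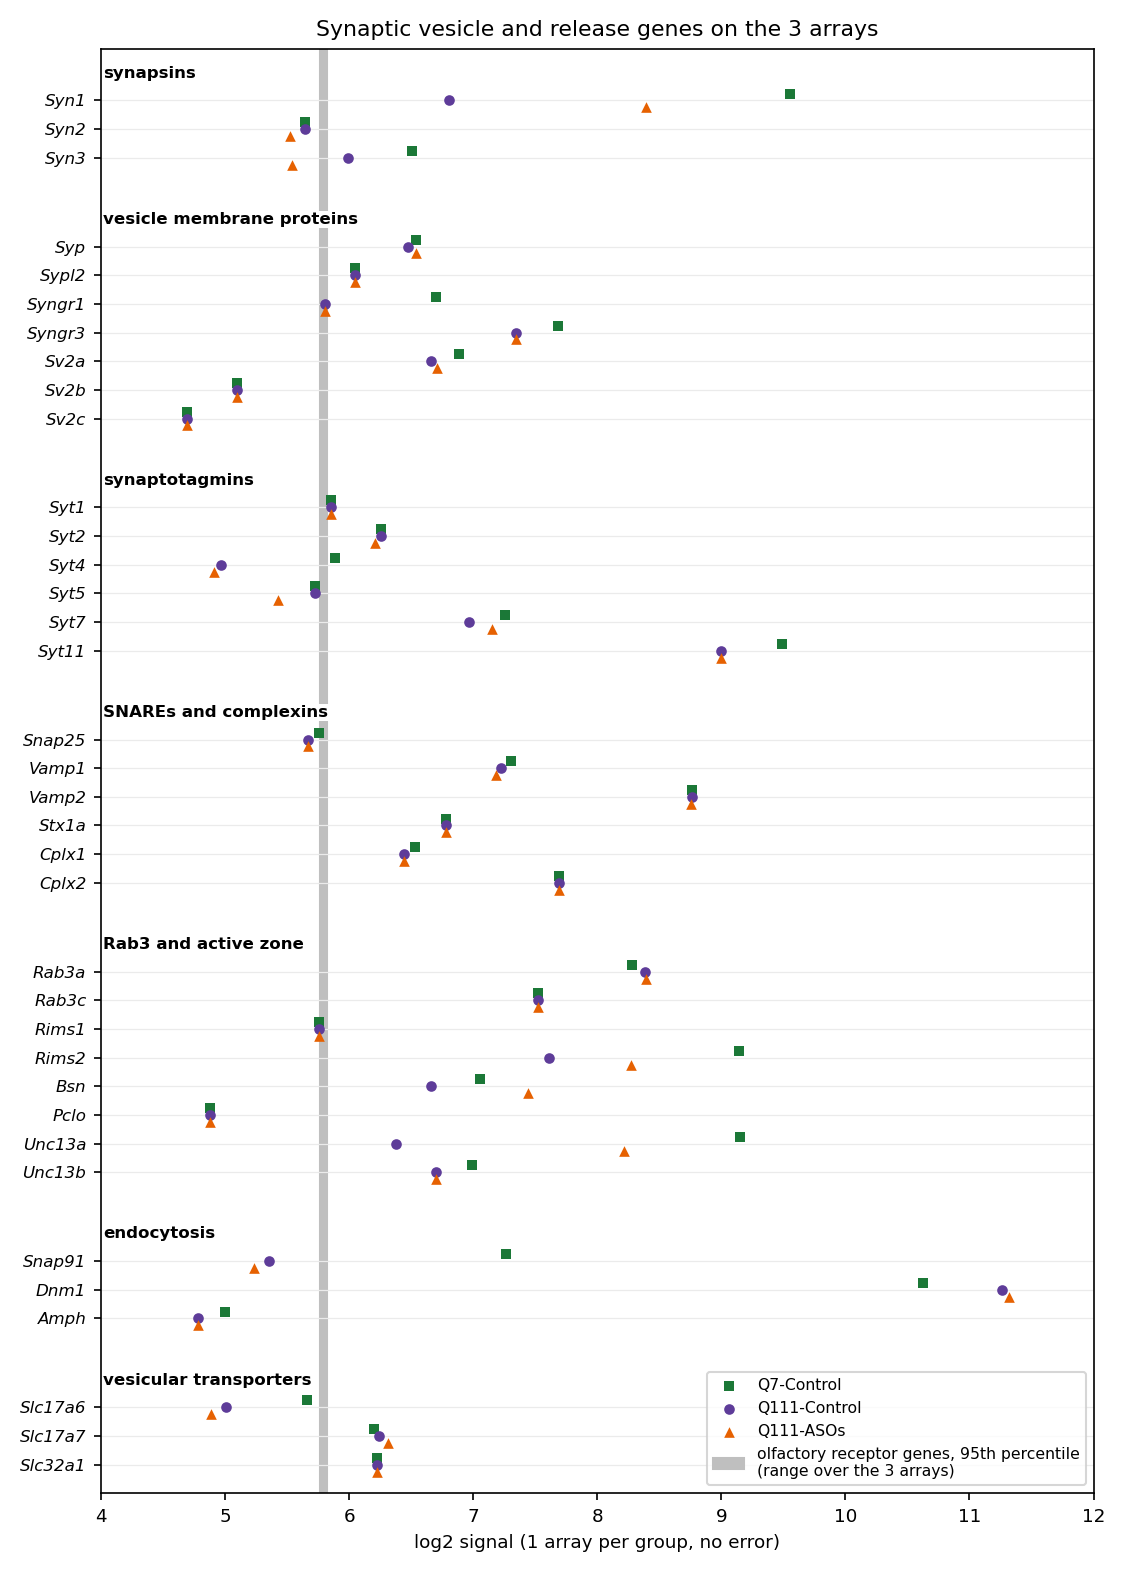
Log2 signals of the 36 genes on the 3 arrays (1 array per group, no error), grouped by role, with the 95th percentile of olfactory receptor genes as a grey band. Syn1, Unc13a and Rims2 are ordered Q7-Control, Q111-ASOs, Q111-Control from high to low, and the SNARE and complexin genes nearly coincide.

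Synapsins are phosphoproteins that coat vesicles and hold them in a reserve cluster. Syn1 had 9.55 in Q7-Control against 6.80 in Q111-Control and 8.39 in Q111-ASOs. Q111-Control was the lowest and Q7-Control the highest, and Q111-ASOs differed from Q7-Control by -1.16. Its differences ranked 71 from the top of 22180 genes for Q7/Q111 and 10 for ASOs/Ctrl. Syn2 had 5.65, 5.65 and 5.52 on the same arrays, all at or below the olfactory receptor level. Syn3 had 6.51 in Q7-Control against 5.99 in Q111-Control and 5.54 in Q111-ASOs. Its lowest signal, that with ASOs, is below the olfactory receptor level, so the ASOs/Ctrl difference of -0.45 has no measured low end.

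At the active zone, Unc13a encodes Munc13-1, which primes docked vesicles by opening syntaxin. Unc13a had 9.15 in Q7-Control against 6.38 in Q111-Control and 8.22 in Q111-ASOs. A signal of 6.38 lies under the all-gene median of 6.55. The differences of Unc13a ranked 70 for Q7/Q111 and 6 for ASOs/Ctrl. Q111-ASOs differed from Q7-Control by -0.94, so the order of the arrays was that of Syn1. Its relative Unc13b, another priming factor, had 6.99, 6.70 and 6.70, which is 0.29 for Q7/Q111 and 0.00 for ASOs/Ctrl. Unc13c and Unc13d, from the wider list of presynaptic genes described below, had 5.29 and 5.84 on every array. Unc13a was thus the single one of the 4 past 1.5-fold in either comparison. However, Unc13c was below the olfactory receptor level on every array and Unc13d just above it.

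RIM proteins, the products of the Rims genes, bind Rab3 on the vesicle, Munc13 and calcium channels. Rims2 had 9.14 in Q7-Control against 7.61 in Q111-Control and 8.27 in Q111-ASOs. Its Q7/Q111 fold was 2.89 and the ASOs/Ctrl fold 1.58, which ranked 274 and 74 from the top. Rims1 had 5.75 on each array, near the olfactory receptor level, and Rims3 and Rims4 of the wider list had 6.15 and 6.17 in both control groups. Bsn encodes bassoon, a giant scaffold of the active zone, and had 7.06 in Q7-Control against 6.66 in Q111-Control and 7.44 in Q111-ASOs. Here the treated cells were the highest of the 3, 1.72-fold above Q111-Control and 1.30-fold above Q7-Control. A second row for Bsn read 6.08 on all 3 arrays, and with the mean of both rows the ASOs/Ctrl difference was 0.39 instead of 0.78. Pclo, which encodes the related scaffold piccolo, had 4.88 on each array, below the olfactory receptor level. Of the ERC scaffold genes in the wider list, Erc1 had 9.68 on each array and Erc2 had 5.65, 4.74 and 4.86, below that level.

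Rab3 proteins are small GTPases on the vesicle surface. Rab3a had 8.28, 8.38 and 8.39 in Q7-Control, Q111-Control and Q111-ASOs, and Rab3c had 7.52 on each, with a second row between 4.83 and 4.85. For the 8 Rab3 and active zone genes the mean difference was 0.61 for Q7/Q111 and 0.41 for ASOs/Ctrl, with medians of 0.15 and 0.01. The means were set by Unc13a, Rims2 and Bsn, as the other 5 lay within 0.29 in both comparisons.

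**Figure D3:**
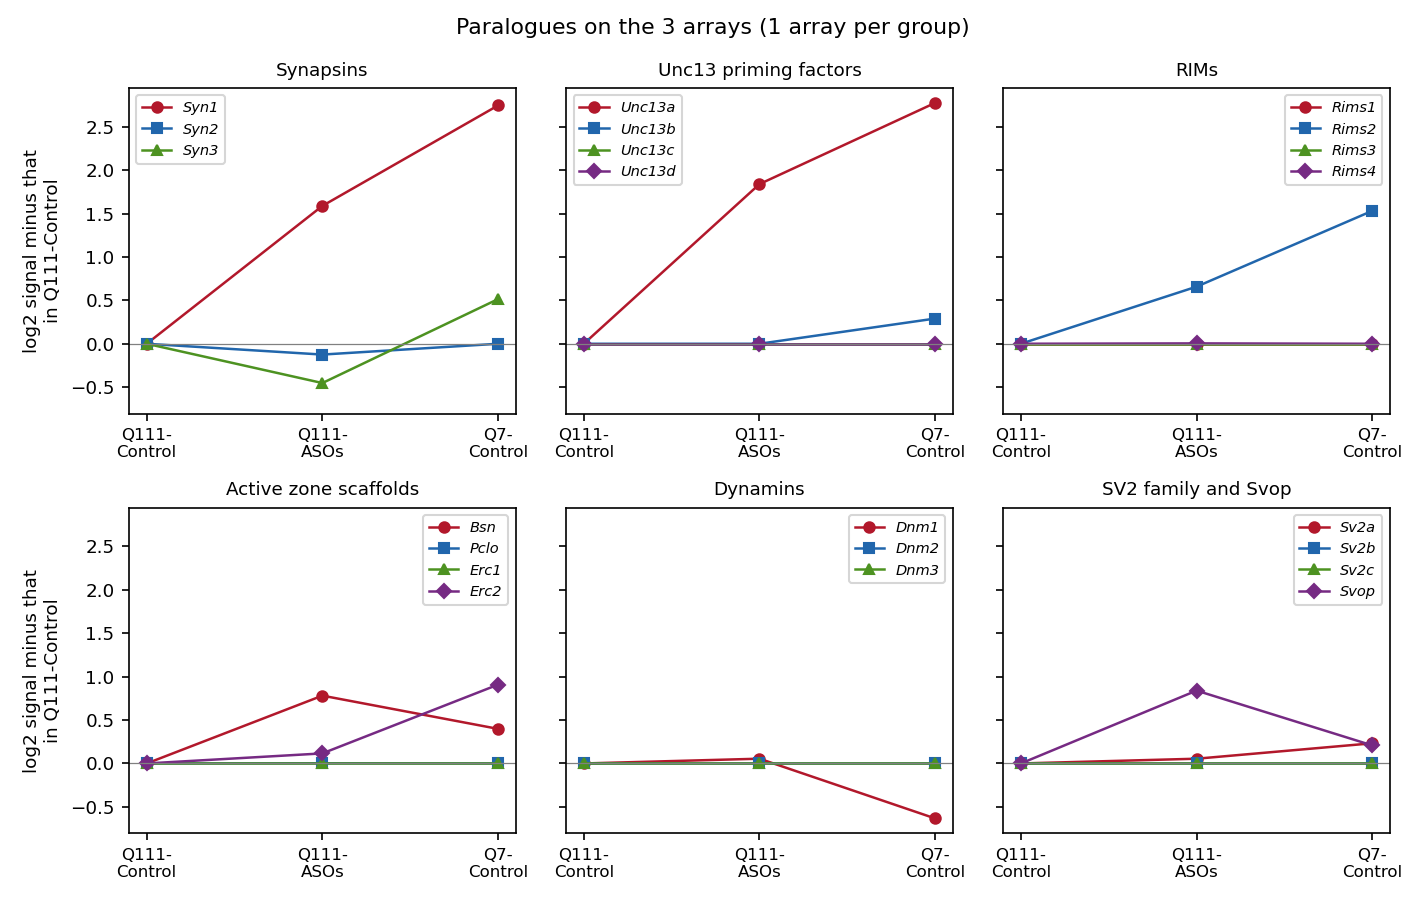
Log2 signal minus that in Q111-Control for families of related genes (1 array per group; lines join the values of a gene and do not mark a time course). In Q7-Control the signals of Syn1, Unc13a and Rims2 exceeded Q111-Control by over 2-fold and those of the other genes plotted did not, while Bsn and Svop were highest with ASOs.

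SNARE proteins carry out the fusion itself. Complexins clamp and then promote it. Among all 6 genes of this role the differences were from 0.00 to 0.09 for Q7/Q111 and from -0.04 to 0.00 for ASOs/Ctrl. The target-membrane SNARE genes Stx1a and Snap25 had 6.78 on each array and 5.76, 5.67 and 5.67. Snap25, a major SNARE of neurons, was below the olfactory receptor level on all 3 arrays. The vesicle SNARE gene Vamp2 had 8.76, 8.76 and 8.75, and Vamp1 had 7.31, 7.22 and 7.19 (a row that it shares with E130112N10Rik was not used). Cplx1 had 6.53 in Q7-Control and 6.44 on both Q111 arrays, and Cplx2 had 7.69 on all 3. Thus the fusion genes with signals above the low end of the scale were close to equal across the 3 arrays.

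Synaptotagmins are vesicle proteins with C2 domains, several of which sense calcium. Syt1, a fast calcium sensor of release, had 5.85 on each array, next to the olfactory receptor level. Syt2, another fast sensor, had 6.26, 6.26 and 6.21 in Q7-Control, Q111-Control and Q111-ASOs. Neither of these fast sensors differed by 0.06 or more. Syt7, a high-affinity sensor of slower release, had 7.26, 6.97 and 7.15. Syt11, which lacks calcium binding, had 9.49 in Q7-Control and 9.00 on both Q111 arrays, or 1.41-fold. Syt4 had 5.89, 4.97 and 4.91, a Q7/Q111 difference of 0.92. The Q111 signals of Syt4 are below the olfactory receptor level, and the mean over its 3 rows, of which the other two were equal across arrays, gave 0.31. Syt5 had 5.72, 5.72 and 5.43, below the same level on every array.

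Among vesicle membrane proteins, the synaptogyrin genes Syngr1 and Syngr3 were higher in Q7-Control and the same on both Q111 arrays. Syngr1 had 6.70 in Q7-Control and 5.81 on each Q111 array. That is 1.86-fold, but 5.81 in Q111-Control is just below the olfactory receptor level, so the fold has no measured low end. Syngr3 had 7.69 in Q7-Control and 7.34 on each Q111 array, a difference of 0.34. Synaptophysin, encoded by Syp, is an abundant vesicle protein related to the synaptogyrins, and Syp had 6.54, 6.48 and 6.54, with a second row at 4.83 on each array. Sypl2, a synaptophysin-like gene known from muscle, had 6.05 on each array. SV2 proteins are transporter-like glycoproteins of the vesicle. Sv2a had 6.89, 6.66 and 6.71, while Sv2b and Sv2c had 5.10 and 4.70 on each array, both below the olfactory receptor level. None of these 7 vesicle membrane genes differed by more than 0.06 between Q111-ASOs and Q111-Control.

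Endocytic genes differed in both directions between the lines. Snap91 encodes AP180, which assembles clathrin on vesicle membrane at the terminal. Snap91 had 7.27 in Q7-Control against 5.35 in Q111-Control and 5.24 in Q111-ASOs. Both Q111 signals are below the olfactory receptor level, so the 3.77-fold has no measured low end, and Snap91 is the gene of the 4 past 2-fold for Q7/Q111 that was not higher with ASOs (-0.12). Dnm1 encodes the neuronal dynamin that cuts vesicles off, and had 10.63 in Q7-Control against 11.26 in Q111-Control and 11.32 in Q111-ASOs. It was the gene of the 36 with the lowest Q7/Q111 difference, -0.63 or 0.645-fold. Dnm2 and Dnm3 of the wider list had 10.75 and 6.77 on each array. Amph, whose product amphiphysin brings dynamin to the membrane, had 5.00, 4.78 and 4.78, all below the olfactory receptor level.

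Vesicular transporters load the transmitter and tell glutamate from GABA terminals. Slc17a6 (VGLUT2), for glutamate, had 5.66 in Q7-Control against 5.01 in Q111-Control and 4.88 in Q111-ASOs. It was 1.57-fold higher in Q7-Control, but every signal was below the olfactory receptor level. Slc17a7 (VGLUT1) had 6.20, 6.24 and 6.31, and Slc32a1 (VGAT), which loads GABA and glycine, had 6.23 on each array. Slc17a6 carries the RE-1 match with 1 mismatch, and its ASOs/Ctrl difference was -0.13. A second row for Slc32a1 read 5.85, 5.97 and 5.85.

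Across roles, 7 genes (19.4%) had exactly the same signal on both Q111 arrays and a higher one in Q7-Control, where 8.32% of all genes did. Equal signals on both Q111 arrays were found for 15 of the 36 and for 49.4% of all genes. The 7 were Syngr1, Syngr3, Syt11, Snap25, Cplx1, Unc13b and Amph, with Q7/Q111 differences from 0.09 to 0.89. Of all 36, 9 (25.0%) were at or below the olfactory receptor level on every array, where 36.3% of all genes were. Above it on all 3 arrays were 23 of the 36, and 13365 of all 22180 genes.

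The third side of the design sets treated Q111 cells against Q7-Control, where treatment and cell line differ together. None of the 36 exceeded Q7-Control by over 2-fold in Q111-ASOs, where 2.27% of all genes did, and 1 did by over 1.5-fold (4.4% of all genes). Snap91 (by -2.03) and Syn1 (by -1.16) were over 2-fold lower, where 2.25% of all genes were, and 8 were over 1.5-fold lower (4.68% of all genes). The Q111-ASOs signals of Snap91, Syt4 and Syn3 are below the olfactory receptor level. Close to the 2-fold limit stood Syt4 at -0.98, Syn3 at -0.97 and Unc13a at -0.94. The median was -0.09 and the mean -0.27. Dnm1 (1.61-fold) and Bsn (1.30-fold) were the highest in Q111-ASOs relative to Q7-Control.

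**Figure D4:**
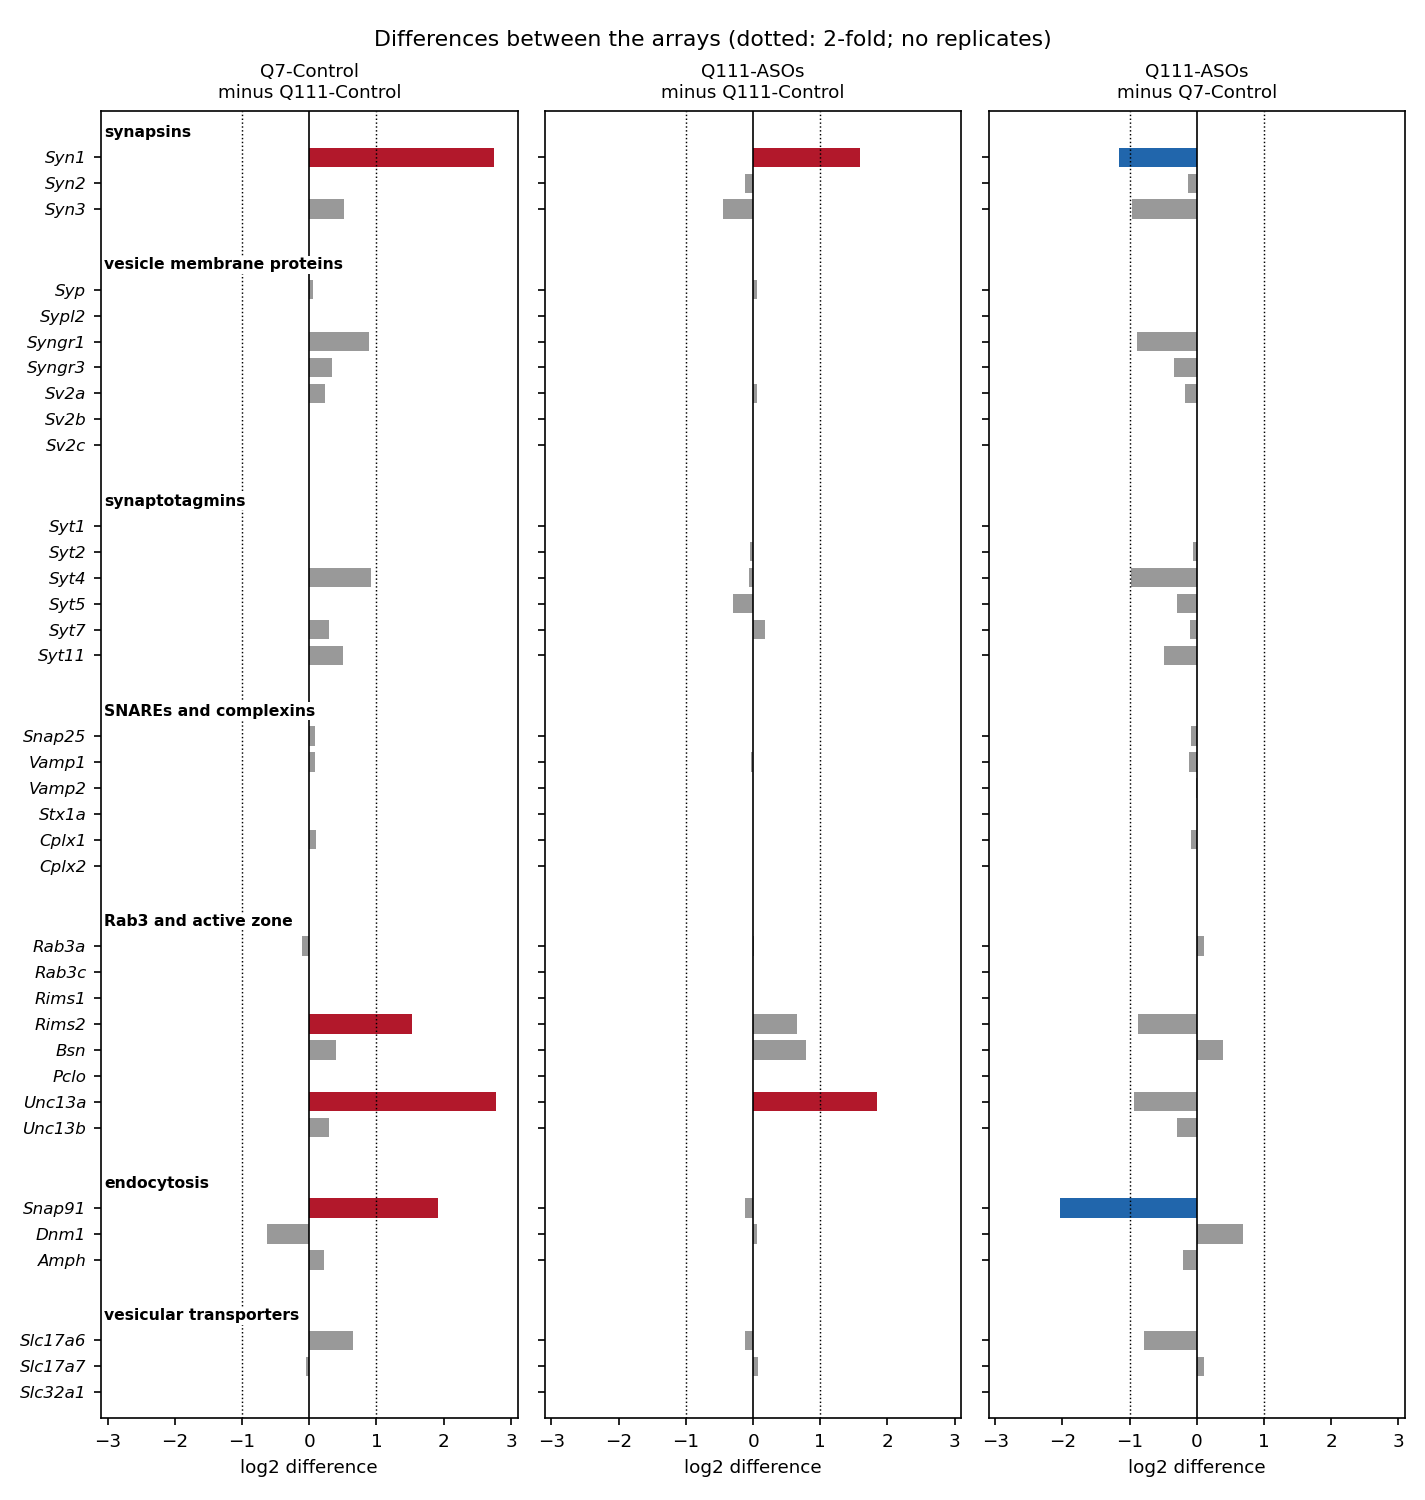
Log2 differences of the 36 genes between each pair of arrays, by role (1 array per group, no error), with dotted lines at 2-fold, red bars for genes over 2-fold higher and blue bars for genes over 2-fold lower. Bars past 2-fold are Syn1, Rims2, Unc13a and Snap91 for Q7/Q111, Syn1 and Unc13a for ASOs/Ctrl, and Syn1 and Snap91 for Q111-ASOs minus Q7-Control.

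A wider list of 123 other genes of the presynaptic terminal, sorted by the same roles, had 116 with a row of their own. For Q7/Q111, 2 of the 116 were over 2-fold higher and 2 over 2-fold lower, where 2.53% and 2.03% of all genes were. With ASOs 0 of the 116 were past 2-fold in either direction, where 0.104% of all genes were higher and 0.0271% lower. The median of the wider list was 0.00 in both comparisons. Sytl2, a synaptotagmin-like effector of Rab27, had 9.30, 8.14 and 8.55 in Q7-Control, Q111-Control and Q111-ASOs, and Synj2, an inositol phosphatase of endocytosis, had 8.69, 7.34 and 7.35. These 2 were higher in Q7-Control by 2.23-fold and 2.55-fold. Rab3il1, whose product interacts with Rab3a, had 6.82, 9.17 and 9.35, and Sncg, a synuclein gene, had 5.21, 6.63 and 6.92. Both were lower in Q7-Control, by -2.34 and -1.42, of which the second has no measured low end because Sncg was below the olfactory receptor level in Q7-Control.

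With ASOs the highest gene of the wider list was Svop, an SV2-related vesicle gene, with 6.60 in Q7-Control against 6.39 in Q111-Control and 7.23 in Q111-ASOs. At 1.79-fold it was the single one of the 116 past 1.5-fold higher, where 0.455% of all genes were. Like Bsn, Svop was highest in the treated cells. Madd, an exchange factor that activates Rab3, had 9.15, 9.04 and 9.61, again highest with ASOs. Scamp5, a secretory carrier membrane gene, had 10.05, 9.29 and 9.63. Its promoter carries the RE-1 element with 1 mismatch from -152 to -138 (chr9:57468198-57468212), as do those of Gad2 from -164 to -150 (chr2:22622163-22622177) and Rph3a from -92 to -78 on the opposite strand (chr5:121009616-121009630). Of the 123 genes of the wider list, 98 had a promoter in the RefSeq table, and matches on 1 chromosome were left out of the listing. Over all promoters the share with at most 1 mismatch was 0.186%. The matches of Scamp5, Gad2 and Rph3a are shown to set beside that of Syn1, with matched fixed letters in capitals.
Scamp5: tAGCACCacGGACAG
Gad2: tAGCACCctGGACAG
Rph3a: CAGtACCacGGACAG

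Rph3a, a Rab3 effector gene, had 5.69 on all 3 arrays. Gad2, which makes GABA, had 5.72, 5.73 and 5.63, a difference of -0.10 between Q111-ASOs and Q111-Control. Both genes were below the olfactory receptor level on every array. Of the remaining genes with the largest difference of their role, the syntaxin-binding gene Stxbp2 had 8.87, 9.82 and 9.82, and the endophilin gene Sh3gl2 had 10.89, 11.13 and 11.45. Stxbp5, which encodes tomosyn, differed by -0.20 with ASOs. The monoamine transporter gene Slc18a1 differed by -0.06 for Q7/Q111, with every signal below the olfactory receptor level. Unc13c, Unc13d, Rims3, Rims4, Erc1, Erc2, Dnm2, Dnm3 and Rph3a were named as relatives of members, or for a promoter match, after their values had been seen.

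Markers of cell types also differed between the lines. Over all genes, 2.53% were over 2-fold higher and 2.03% over 2-fold lower in Q7-Control, and 0.104% were over 2-fold higher with ASOs. Of 9 progenitor markers, 7 were higher by over 2-fold in Q7-Control (Nes, Sox2, Pax6, Hes1, Fabp7, Msi1 and Prom1, the last below the olfactory receptor level on every array), and the mean log2 signal of the list was 9.02, 7.31 and 7.37 in Q7-Control, Q111-Control and Q111-ASOs. Of 12 neuron markers, 3 were higher (Tubb3, Stmn2 and Ncam1), with means of 7.04, 6.26 and 6.44, and 1, Stmn2, was over 2-fold higher with ASOs. The median Q7/Q111 difference of the 12 was 0.04. Of the 12, 5 were equal on all 3 arrays, where 35.5% of all genes were. At or below the olfactory receptor level on all arrays were 5 of the 12 and 36.3% of all genes. Of 8 fibroblast markers, 3 were lower in Q7-Control (Col1a2, Col3a1 and Pdgfra), with means of 8.85, 9.85 and 10.04. Of 7 astrocyte markers Slc1a3 was lower, and 0 of 7 oligodendrocyte and 0 of 8 microglia markers were past 2-fold. Of 9 striatal neuron markers 5 were at or below the olfactory receptor level on all arrays, where 36.3% of all genes were, and Penk was lower in Q7-Control. Defining markers of mature striatal neurons thus stood mostly at the low end of the scale in lines labelled striatal. The part of these differences between the lines in the values of the 36 genes was not tested.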

How the data were processed

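One Affymetrix Mouse Gene 2.0 ST array was run on total RNA from each of 3 cultures. The authors used Partek to make the deposited log2 signals. For its version, normalization, summarization and background correction, settings were not given in the sources used here, and the log2 scale was taken from the range of the values, 2.12 to 14.10. Of 41345 rows, 23521 carry 1 gene symbol (23328 updated by gene ID through RefSeq, GRCm38.p6), and 1820 with several symbols and 16004 with no listed gene were not named. The row with the highest mean signal was kept per gene, which left 22180 genes.

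Differences were taken on the log2 scale and counted past 2-fold, with 1.5-fold and 3-fold as alternatives. Further alternatives were centring on array medians, quantile normalization, the mean of all rows, minimum signals and values relative to Gapdh. The calculation was tested on simulated data. The number of arrays limits the precision. Members and lists were chosen with earlier results of these data known. All members are named, with wider-list genes past 2-fold or with the largest difference of their role, markers past 2-fold, and Rest, Htt and Gapdh. Promoter sequences came from a RefSeq table (GRCm38.p6). Python 3.11.15, numpy 2.4.6, pandas 2.3.3 and matplotlib 3.10.9 were used.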

Additional observations from a re-analysis of the deposited data

How the results depend on the processing

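With no replicate spread to go by, log2 values that shifted by under 0.129 (the SD over genes of the ASOs/Ctrl differences) and counts that shifted by at most 1.5 times were called stable. Of 432 alternative values of single genes, 427 were stable and 5 moved, but most of the 432 could not have moved, as described below. With centring or quantile normalization 6 changed sign, all of which were at most 0.0442 in size as deposited (Slc17a7, Rab3a, Vamp2 and Pclo). Over all these settings, the mean of all rows included, 81 values of 0 became other than 0. Counts of genes higher, lower or equal by any amount therefore hold for the deposited scale alone. The 5, all with the mean of all rows, were Syt4 (0.31 for Q7/Q111 and -0.33 for Q111-ASOs minus Q7-Control) and Bsn (0.20, 0.39 and 0.19 in the 3 comparisons). Values relative to Gapdh could not move, since Gapdh was equal on all arrays. The mean of all rows could not move a gene with a single row. Centring shifted every gene alike, by 0.06, 0.02 and -0.04 for Q7/Q111, ASOs/Ctrl and Q111-ASOs minus Q7-Control. These shifts are under 0.129, so no value could move with centring, and the count of 427 is not a measure of robustness. With centring and with quantile normalization, 4 of the 36 genes and 2 of the wider list were over 2-fold lower in Q111-ASOs than in Q7-Control, in place of 2 and 1.

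A minimum signal at the all-gene median left 16 of the 36. The median for Q7/Q111 was then 0.26, 1 of the 36 was lower in Q111-ASOs than in Q7-Control, and of the wider list 1 was lower for Q7/Q111 and 1 higher in Q111-ASOs than in Q7-Control. Fewer genes are counted there. At 1.5-fold, 7 genes were higher and 1 lower for Q7/Q111, where 5.2% and 3.88% of all genes were. For ASOs/Ctrl 4 were higher, where 0.455% of all genes were, and 12 and 1 of the wider list were higher in the same comparisons. For Q111-ASOs minus Q7-Control, 1 was higher and 8 lower, where 4.4% and 4.68% of all genes were, and of the wider list 5 and 11. At 3-fold, 0 of the wider list were higher and 1 lower for Q7/Q111, and 1 of the 36 and 0 of the wider list were lower in Q111-ASOs than in Q7-Control. The changed criterion accounts for these counts. The share of all genes was not counted at 3-fold, after centring or quantile normalization, or with a minimum signal. No paired analysis was possible because each group has 1 array.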
